A study of Homo sapiens with 31 samples.

Results

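HT-29 and HCT116, both established lines of human colorectal adenocarcinoma, were compared with each other across all 17113 protein-coding genes of the count table. The comparison used the 3 unmixed libraries of HT-29 and the 3 unmixed libraries of HCT116, 6 of the 31 libraries in the series. The study mixed total RNA of 4 colorectal cancer lines with total RNA of CCD841CoN, a normal colon line, and also sequenced each line unmixed. Neither line carried an engineered allele or received a treatment according to the labels, and both grew in RPMI-1640 or DMEM with fetal bovine serum. Each group is a single line, and nothing in the labels says that its 3 libraries came from separate cultures. The test was fitted on all 15 unmixed libraries of 5 lines, which share an estimate of the spread. The p-values therefore measure the spread between libraries within the 5 lines, which may be technical.

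As background, the colon epithelium is renewed by Wnt-driven stem cells whose daughters become absorptive or mucus-secreting cells under transcription factors of the CDX, HNF and GATA families. HT-29 is known for its capacity to form absorptive and goblet-like cells in culture, and carries mutations in APC, BRAF and SMAD4. HCT116 is known as a poorly differentiated line with mutations in CTNNB1 and TGFBR2 and with microsatellite instability from loss of mismatch repair.

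The libraries held 10800329 to 28732096 counts in HT-29 and 20604908 to 33029384 in HCT116. Spearman coefficients between libraries of a line ran from 0.961 to 0.981 in HT-29 and from 0.948 to 0.975 in HCT116. Mitochondrially encoded genes took 0.113 to 1.12% of the counts in HT-29 and 0.220 to 0.525% in HCT116. Levels are CPM, a gene's count scaled to the total coding count of its library, and are listed for replicates 1, 2 and 3 in that order unless stated. Both lines carried epithelial markers, whose summed level was 14707 to 24664 CPM in HT-29 and 3445 to 6162 CPM in HCT116. Markers of colon epithelium summed to 1716 to 1855 CPM in HT-29 against 10.99 to 16.9 CPM in HCT116, so that HCT116 was nearly without VIL1, CDH17, LGALS4, KRT20 and GPA33, while CDX2, the other marker of the list, made up most of the HCT116 sum and was lower in HT-29. Fibroblast markers summed to 5.81 to 29.7 CPM in HT-29 and 5.51 to 29.1 CPM in HCT116, against 25083 to 29997 CPM in CCD841CoN. In both lines replicate 3 had the highest sum. DCN, for example, stood at 0.0348, 0 and 5.93 CPM in HT-29 and at 0, 0.291 and 5.97 CPM in HCT116. Its mean in CCD841CoN was 7486 CPM. The source of these reads in replicate 3 was not tested.

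HT-29 replicate 2 stood apart. At 99 genes that were below 0.5 CPM on average in the other HT-29 libraries and at 20 CPM or more in HCT116, this library summed to 413 CPM, which was 6.53% of the HCT116 level, against 0.130% in the other HT-29 libraries. The median over these genes was 5.95%. The value of 0.130% was kept low by the choice of genes. Scored in turn on markers chosen without them, HT-29 replicates 1 and 3 stood at 0 and 0.438%, over only 3 and 4 markers. Markers that only HCT116 carried at 1 CPM or more stood at 5.74% of the HCT116 level (12 genes), whereas the corresponding markers of LoVo, LS1034 and CCD841CoN stood at 0.212, 0.256 and 0.114% of those lines' levels. The HT-29 mixture with 50% cancer RNA held 0.0358% of the HCT116 level over 22 HCT116 markers chosen against HT-29 and CCD841CoN only, some of which LoVo and LS1034 also carried, against 5.48% in HT-29 replicate 2 over the same genes. In the opposite direction, HT-29 markers stood at 0.0636 to 0.191% of the HT-29 level in the 3 HCT116 libraries. For part of the genes that were high in HCT116, results are therefore given with and without HT-29 replicate 2. Where a fold change stands alone without a setting, it is from all libraries and may be affected by that library.

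Of 14452 genes with enough counts to test, 4422 (30.6%) passed edgeR's quasi-likelihood test at a Benjamini-Hochberg adjusted p below 0.05 with a log2 fold change (HT-29 over HCT116) of at least 1 in size. Of these, 2195 (15.2% of tested genes) were higher and 2227 (15.4%) lower in HT-29, and the median over all tested genes was -0.081. The libraries of the lines did not overlap for 6657 genes (46.1%). Without HT-29 replicate 2 the counts were 1931 higher (13.1% of 14760 tested genes) and 2133 lower (14.5%). With and without it, 3850 genes were called in the same direction, and no gene was called in opposite directions. The size of the differences was affected more than their number. Called genes beyond a log2 fold change of 6 numbered 359 higher and 110 lower in HT-29 with all libraries, and 351 higher and 586 lower without HT-29 replicate 2. Thus the excess of very large differences on the HT-29 side with all libraries turned into an excess on the HCT116 side without that library. The lines were not treated alike in this count, as a library was left out of HT-29 only. Where the remaining libraries of a line held no count, the size of a fold change is not set by the data alone.

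**Figure D1:**
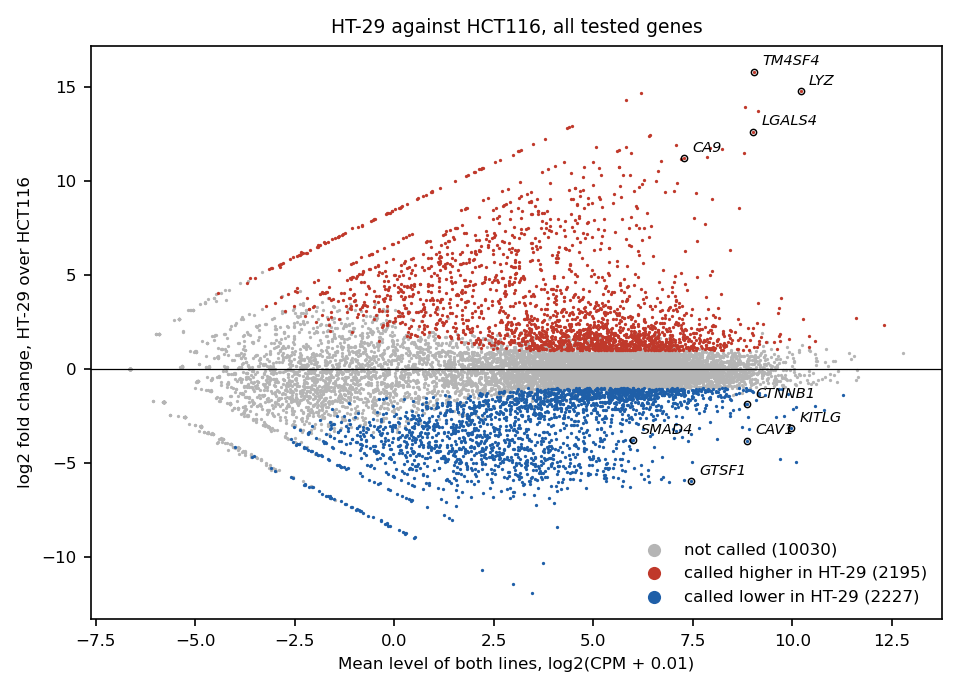
The log2 fold change of HT-29 over HCT116 (vertical axis) against the mean level of both lines (horizontal axis, log2 of CPM + 0.01) is shown for 14452 tested genes, one point per gene. Points in red (2195) were called higher and points in blue (2227) lower in HT-29, and the upper cloud reaches further from 0 than the lower one, with HT-29 replicate 2 included.

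The 15 genes with the largest ratios on the HT-29 side were nearly without counts in HCT116. Lysozyme, the antibacterial enzyme of Paneth cells encoded by LYZ, stood at 2728, 1998 and 2379 CPM in HT-29 against 0.0303, 0.243 and 0 CPM in HCT116 (log2 fold change 14.80 ± 0.69, adjusted p = 8.47e-09). TM4SF4, a membrane protein of the transmembrane L6 family, stood at 914, 766 and 1486 CPM in HT-29 against a single count in the 3 HCT116 libraries (log2 fold change 15.82 ± 0.90, adjusted p = 9.75e-09). AGR2, a disulfide isomerase of the endoplasmic reticulum needed for mucin production, stood at 976, 745 and 964 CPM in HT-29 against 0.0303, 0.146 and 0 CPM in HCT116. In each of these genes all HT-29 libraries were high and all HCT116 libraries were at or near 0. GPX2, the glutathione peroxidase of the gut epithelium, averaged 1133 ± 94.1 CPM in HT-29 and 0.091 ± 0.132 CPM in HCT116 (SD, n = 3 each), and LGALS4, a galectin of the intestinal brush border, averaged 1039.7 ± 22.1 CPM in HT-29 and 0.184 ± 0.137 CPM in HCT116. SLC44A4, a transporter of the choline transporter-like family, had no count in HCT116 and 173, 148 and 116 CPM in HT-29, at least 3661-fold higher at a floor of 3 counts over the HCT116 libraries. The calcium-binding protein S100P, the kallikrein KLK11, the neuromedin U receptor NMUR2 and the intestinal annexin ANXA13 belonged to the same 15 genes. Leaving out HT-29 replicate 2 moved no log2 fold change of LYZ, TM4SF4, AGR2, GPX2, LGALS4 or SLC44A4 by more than the SE of its own gene.

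On the HCT116 side, the ranking depended on whether HT-29 replicate 2 was counted. With all libraries, the lowest ratios belonged to genes of moderate level in HCT116. DDIT4L, a stress-induced inhibitor of mTOR signalling, stood at 0, 0.0401 and 0 CPM in HT-29 against 53.5, 7.04 and 19.2 CPM in HCT116 (log2 fold change -10.30 ± 1.10, adjusted p = 8.53e-06, or -12.15 without HT-29 replicate 2). Receptors for lysophosphatidic acid were among them: LPAR3 stood at 0, 0.241 and 0 CPM in HT-29 against 32.6, 35.2 and 33.4 CPM in HCT116 (log2 fold change -8.40 ± 0.80, adjusted p = 1.26e-06, or -12.47 without HT-29 replicate 2). LPAR1 stood at 0, 0.16 and 0.463 CPM in HT-29 against 33.7, 16.2 and 20.6 CPM in HCT116 (log2 fold change -7.20 ± 0.68, adjusted p = 1.12e-06). For DDIT4L, LPAR3 and LPAR1 the libraries of the lines did not overlap, and no HT-29 library reached 0.5 CPM.

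Without HT-29 replicate 2, genes of much higher level in HCT116 came first. GTSF1, a germline factor of the piRNA pathway, had 0, 16.4 and 0 CPM in the HT-29 libraries against 404, 303 and 322 CPM in HCT116. Its log2 fold change was -5.94 ± 1.34 (adjusted p = 0.0034) with all libraries and -15.82 (adjusted p = 1.86e-07) without HT-29 replicate 2, where HCT116 was at least 4519-fold higher than the remaining HT-29 libraries at a floor of 3 counts. Only HT-29 replicate 2 held GTSF1 counts in HT-29, at 4.78% of the HCT116 level. ELOVL5, an elongase of polyunsaturated fatty acids, had 0, 7.54 and 0.0926 CPM in HT-29 against 161, 137 and 156 CPM in HCT116 (-5.82 ± 1.05 with all libraries, -12.17 without HT-29 replicate 2). HLTF, a helicase-like factor of DNA damage tolerance, had 0.0348, 10.3 and 0.185 CPM in HT-29 against 323, 149 and 137 CPM in HCT116 (-5.82 ± 1.08 with all libraries, -11.19 without HT-29 replicate 2). Both genes were also present in LoVo, LS1034 and CCD841CoN, where ELOVL5 averaged 143, 92.8 and 145 CPM and HLTF averaged 36.8, 53.4 and 55.1 CPM, so that HT-29 had the lowest level of the 5 lines. The neuropeptide precursor GAL, the cancer testis gene MAGEB2, the homeobox gene MSX1 and the sulfotransferase HS6ST2 were also among the first 8, with log2 fold changes of -6.25 (MSX1) to -5.67 (GAL) with all libraries and -15.27 (MAGEB2) to -10.46 (MSX1) without HT-29 replicate 2. DESeq2, unlike edgeR, did not call MAGEB2 with all libraries (adjusted p = 0.236).

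**Figure D2:**
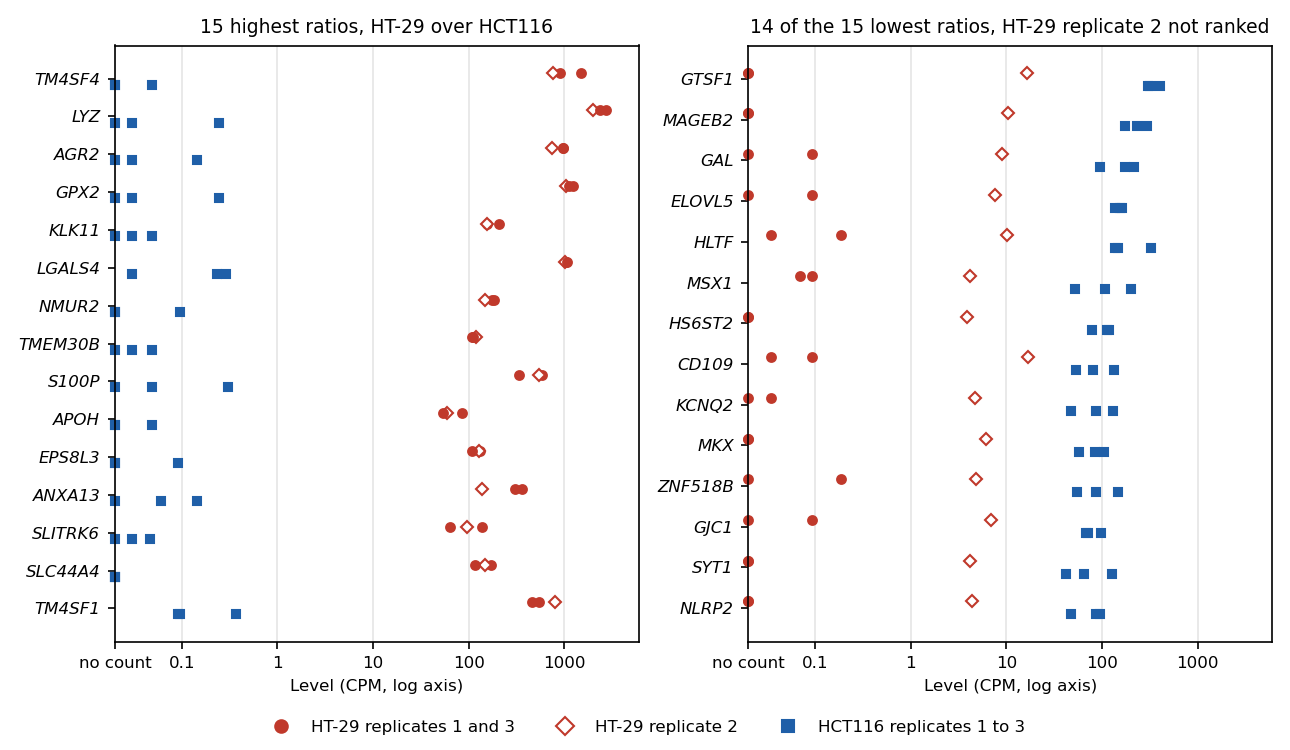
Levels in CPM (log axis, with libraries without a count placed at the left edge) of the 15 genes with the highest ratio of HT-29 over HCT116 and of 14 of the 15 with the lowest ratio when HT-29 replicate 2 is left out of the ranking. Each symbol is 1 library: filled red circles for HT-29 replicates 1 and 3, open diamonds for HT-29 replicate 2 and blue squares for HCT116. In the left panel the diamonds lie with the circles, and in the right panel they lie between the circles and the squares, for GTSF1 at 16.4 CPM.

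The promoters of these genes differed in CpG content, a sequence feature the comparison did not use. RefSeq windows of 300 bases (250 before to 50 after the start, GRCh38.p14) were matched by symbol for 11556 of the 14452 tested genes. Shown here are a pair of genes from the HT-29 side and a pair from the HCT116 side, as examples and not by rank. They run 5′ to 3′ on the gene's own strand, with every CG dinucleotide in capitals.
TM4SF4 (GRCh38.p14 chr3:149474447-149474746, plus strand): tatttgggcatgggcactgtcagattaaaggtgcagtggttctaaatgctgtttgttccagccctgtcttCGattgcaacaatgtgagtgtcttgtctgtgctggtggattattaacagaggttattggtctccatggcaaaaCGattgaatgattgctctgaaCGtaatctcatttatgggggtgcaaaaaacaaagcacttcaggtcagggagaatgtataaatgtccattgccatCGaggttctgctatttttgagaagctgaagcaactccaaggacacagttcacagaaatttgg
LGALS4 (GRCh38.p14 chr19:38812896-38813195, minus strand): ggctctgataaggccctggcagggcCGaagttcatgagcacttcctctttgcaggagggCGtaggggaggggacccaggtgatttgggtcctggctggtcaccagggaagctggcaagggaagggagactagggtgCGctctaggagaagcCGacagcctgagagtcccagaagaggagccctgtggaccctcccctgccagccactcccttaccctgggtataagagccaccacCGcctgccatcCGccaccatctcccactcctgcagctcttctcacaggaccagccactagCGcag
ELOVL5 (GRCh38.p14 chr6:53348901-53349200, minus strand): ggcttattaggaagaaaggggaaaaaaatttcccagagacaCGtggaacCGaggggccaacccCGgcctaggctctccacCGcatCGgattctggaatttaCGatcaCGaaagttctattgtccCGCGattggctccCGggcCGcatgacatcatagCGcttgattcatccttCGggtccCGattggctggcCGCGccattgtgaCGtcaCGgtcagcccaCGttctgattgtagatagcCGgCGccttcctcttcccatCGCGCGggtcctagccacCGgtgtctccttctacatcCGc
HLTF (GRCh38.p14 chr3:149086484-149086783, minus strand): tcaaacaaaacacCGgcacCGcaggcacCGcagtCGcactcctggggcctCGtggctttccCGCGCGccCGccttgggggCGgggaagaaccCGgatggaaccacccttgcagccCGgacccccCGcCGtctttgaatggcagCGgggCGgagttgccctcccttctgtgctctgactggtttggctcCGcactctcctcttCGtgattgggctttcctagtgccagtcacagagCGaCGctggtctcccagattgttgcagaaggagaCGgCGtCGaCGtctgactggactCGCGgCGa
The windows of TM4SF4 and LGALS4 held 4 and 7 CG dinucleotides, and those of ELOVL5 and HLTF 26 and 27. The ratio of observed to expected CG was 0.304 and 0.238 in TM4SF4 and LGALS4, against 1.06 and 0.863 in ELOVL5 and HLTF. The sides were not cleanly apart. On the HCT116 side, GTSF1, first in the ranking without HT-29 replicate 2, had a ratio of 0.349 and HS6ST2 one of 0.120. TMEM30B, on the HT-29 side, had 0.6.

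The difference was seen in the extreme sets and was smaller over all called genes. There the median CpG ratio was 0.741 for 1708 genes higher in HT-29 and 0.816 for 1665 lower ones. In these sets 64.9% and 79.5% reached 0.6, and 8.26% and 6.01% held TATAAA. Over all tested genes with a window the median was 0.824, 78.6% reached 0.6 and 6.42% held TATAAA. Among called genes at least 64-fold higher in HT-29 and at 10 CPM or more, 168 of 234 had a window, with a median CpG ratio of 0.383, and 33.3% of them reached 0.6. Among genes called lower and at least 64-fold lower in HT-29 without HT-29 replicate 2, 191 of 243 had a window, with a median of 0.751, and 71.7% reached 0.6. All tested genes at 10 CPM or more in either line had a median of 0.854, and 86.3% reached 0.6. The letters TATAAA, searched on both strands, were in 18.5% of the windows on the HT-29 side, in 6.28% of those on the HCT116 side and in 5.11% of those of all tested genes at 10 CPM or more (3264 of all 27305 windows in the table). The letters TTTATNG of a CDX motif, which can overlap TATAAA on the other strand, were in 12.5% of windows on the HT-29 side, 5.76% on the HCT116 side and 5.62% of those at 10 CPM or more (10.1% of all windows). The letters TGANTCA of an AP-1 motif, on both strands, were in 10.1% of windows on the HT-29 side, 3.14% on the HCT116 side and 4.08% of those at 10 CPM or more (7.76% of all windows). Motifs of HNF1, HNF4 and TCF were searched too. HNF1 had no match in the window of any tested gene. HNF4 was in 2.38% of windows on the HT-29 side, 0% on the HCT116 side and 0.255% at 10 CPM or more. TCF was in 1.79, 1.05 and 1.25%, in the same order. The median share of G and C letters was 58.0, 66.3 and 65.7% in this order, and 58.3% over all windows. Whether this share accounts for the motif differences was not tested. The genes of the sets were chosen by their levels in the compared libraries, so the shares are descriptions, and a match is not a binding site.

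**Figure D3:**
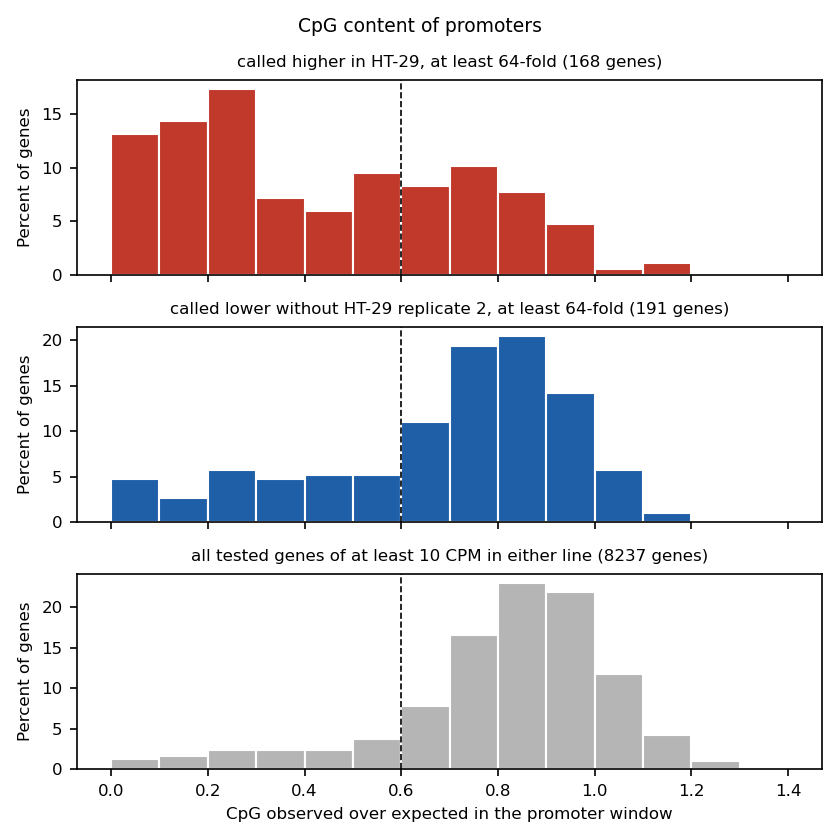
The ratio of observed to expected CG in the promoter window (horizontal axis, bins of 0.1) is shown as the percent of genes in each set for 168 genes at least 64-fold higher in HT-29, 191 genes at least 64-fold lower in HT-29 without HT-29 replicate 2, and 8237 tested genes at 10 CPM or more. The dashed line marks 0.6. The upper set lies mostly below the line (33.3% reach it), and the other sets mostly above it (71.7% and 86.3%).

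Gene lists describe the groups below by counts of called members, beside 15.2% higher and 15.4% lower over all tested genes. Among intestinal transcription factors, 11 of 18 tested members were higher in HT-29, 3 were lower and 4 were not called, with a median log2 fold change of 2.62. FOXA2, a forkhead factor of endodermal organs, stood at 25.3, 15.5 and 14.9 CPM in HT-29 against 0.121, 0 and 0 CPM in HCT116 (log2 fold change 8.41 ± 0.67, adjusted p = 6.1e-07). HNF4A, a nuclear receptor of the intestinal epithelium, stood at 40.4, 66.1 and 31.7 CPM in HT-29 against 3.78, 3.3 and 4.3 CPM in HCT116 (log2 fold change 3.64 ± 0.39, adjusted p = 8.63e-06). FOXA1, another forkhead factor, averaged 178 ± 10.6 CPM in HT-29 and 2.85 ± 1.45 CPM in HCT116. ONECUT2, HNF4G, KLF5, GATA6, ELF3, EHF and CDX1 were higher too, with log2 fold changes of 1.82 (EHF) to 5.24 (CDX1), but CDX1, a caudal homeobox factor, did not pass 2 CPM in any library of either line. The lower members included CDX2 and TFCP2L1. CDX2, the master regulator of intestinal identity, stood at 4.04, 2.01 and 5.93 CPM in HT-29 against 9.39, 14.7 and 14.9 CPM in HCT116 (log2 fold change -1.64 ± 0.46, adjusted p = 0.0106). TFCP2L1 stood at 0.174, 3.29 and 0.37 CPM in HT-29 against 24.3, 26.8 and 14.3 CPM in HCT116 (-4.00 ± 0.78, or -6.41 without HT-29 replicate 2). SOX9, KLF4, FOXA3 and ISX were not called with all libraries, but SOX9 was called higher without HT-29 replicate 3 or HCT116 replicate 3, KLF4 was called higher without HCT116 replicate 1 or in the blocked fit of these 6 libraries (1.66, adjusted p = 0.0356), and ISX was called lower without HCT116 replicate 1.

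Products of differentiated cells were mostly higher in HT-29, the line with less CDX2. Of 27 tested genes of differentiated intestinal epithelium, 20 were higher in HT-29 and none lower (median 6.33). TSPAN8, a tetraspanin, stood at 1153, 687 and 819 CPM in HT-29 against 0.545, 0.34 and 0 CPM in HCT116 (log2 fold change 11.49 ± 0.70, adjusted p = 1.65e-08). The villin gene VIL1, for the actin-bundling protein of microvilli, averaged 207 ± 18 CPM in HT-29 and 0.101 ± 0.126 CPM in HCT116, and the keratin gene KRT20 averaged 509 ± 76.1 CPM in HT-29 and 0.989 ± 0.42 CPM in HCT116. Without HCT116 replicate 3, 1 member of this list was called lower. Of 27 tested genes of goblet, Paneth and other secretory products, 22 were higher in HT-29 and 1 was lower (median 6.61). TFF3, the trefoil peptide of goblet cells, stood at 22.1, 31 and 45.2 CPM in HT-29 against 0, 0.0485 and 0 CPM in HCT116 (log2 fold change 10.80 ± 0.91, adjusted p = 3.21e-07). MUC13, a membrane mucin, averaged 149 ± 49.3 CPM in HT-29 and 0.17 ± 0.199 CPM in HCT116, and SPDEF, the goblet cell transcription factor, averaged 50.6 ± 1.85 CPM in HT-29 and 0.0786 ± 0.0712 CPM in HCT116; these 2 genes were chosen after their values were seen. The lower member was GFI1, a zinc finger repressor of the secretory lineage, at 0.452, 1.12 and 0.185 CPM in HT-29 against 8.36, 6.6 and 8.14 CPM in HCT116 (log2 fold change -3.60 ± 0.73, adjusted p = 0.00116).

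Among 23 tested glycosyltransferases of mucin and Lewis antigens, 13 were higher and 4 lower in HT-29. GCNT3, which branches mucin glycans, stood at 909, 1016 and 513 CPM in HT-29 against 5.15, 0.534 and 0.648 CPM in HCT116 (log2 fold change 8.54 ± 1.07, adjusted p = 3.57e-05). ST3GAL1, a sialyltransferase, averaged 493 ± 72.4 CPM in HT-29 and 13.8 ± 3.03 CPM in HCT116. FUT8, the enzyme of core fucosylation, was lower, at 6.47, 9.99 and 5.56 CPM in HT-29 against 47.1, 26.7 and 23.8 CPM in HCT116 (log2 fold change -2.11 ± 0.37, adjusted p = 0.000418). Without HT-29 replicate 3, HCT116 replicate 1 or HCT116 replicate 2, 2 members were lower instead of 4.

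**Figure D4:**
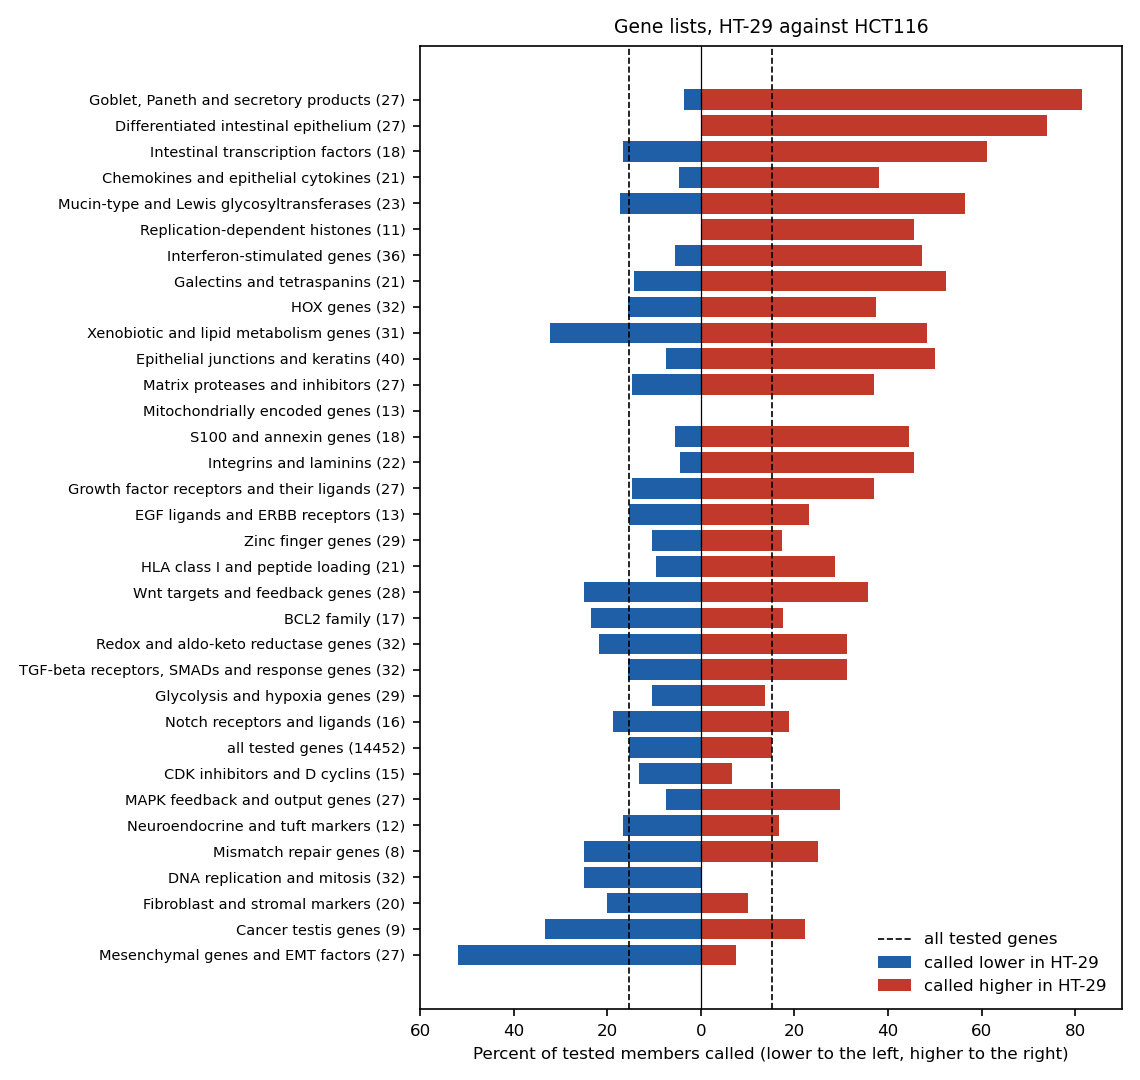
For gene lists of 8 or more tested members (number in parentheses), the bar to the right gives the percent of tested members called higher in HT-29 and the bar to the left the percent called lower, ordered by median log2 fold change. Dashed lines mark 15.2% and 15.4%, the shares over all tested genes. Secretory and intestinal lists stand at the top, with 22 of 27 and 20 of 27 members higher, and mesenchymal genes at the bottom, with 14 of 27 lower.

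Genes of cell contacts were more often higher than lower in HT-29. Of 40 tested genes of epithelial junctions and keratins, 20 were higher and 3 lower in HT-29. The claudin CLDN1, a protein of tight junctions, stood at 78.4, 99.3 and 44.2 CPM in HT-29 against 0.182, 0 and 0.37 CPM in HCT116 (log2 fold change 8.63 ± 0.60, adjusted p = 4.97e-08), and CLDN2, which forms cation pores, averaged 134 ± 67 CPM in HT-29 and 0.683 ± 0.177 CPM in HCT116. P-cadherin (CDH3) was lower in HT-29, at 7.83, 19.1 and 17 CPM against 138, 163 and 189 CPM in HCT116 (log2 fold change -3.42 ± 0.35, adjusted p = 2.63e-06). Without HT-29 replicate 3, 1 member was lower instead of 3.

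Of 27 mesenchymal genes and factors of epithelial to mesenchymal transition, 2 were higher and 14 lower in HT-29 (11 to 14 lower when each library was left out in turn), with a median of -1.51. CALD1, an actin-binding regulator of contraction, stood at 1.84, 4.01 and 2.96 CPM in HT-29 against 123, 67.5 and 114 CPM in HCT116 (log2 fold change -5.07 ± 0.55, adjusted p = 4.8e-06). CAV1, the coat protein of caveolae, stood at 13.5, 161 and 10.8 CPM in HT-29 against 765, 1058 and 779 CPM in HCT116 (-3.79 ± 0.96, or -6.10 without HT-29 replicate 2), so that HT-29 replicate 2 was more than 10 times the other HT-29 libraries. This level of CAV1 was a larger share of the HCT116 level than the median of 5.95% over the HCT116 markers in that library. The source of the larger share was not tested. AXL, a receptor tyrosine kinase, stood at 1.36, 16.8 and 0.741 CPM in HT-29 against 85.7, 231 and 72.8 CPM in HCT116 (-4.29 ± 0.84, or -6.82 without HT-29 replicate 2). The RNA-binding protein QKI stood at 0, 3.37 and 0.0926 CPM in HT-29 against 52.8, 54.6 and 26.8 CPM in HCT116 (-5.16 ± 0.89, or -10.41). The transcription factor ZEB1 stood at 0.209, 1.36 and 0.0926 CPM in HT-29 against 7.02, 8.64 and 3.75 CPM in HCT116 (-3.37 ± 0.60, or -5.16). VIM, the mesenchymal intermediate filament, was lower in HT-29 (-1.94 ± 0.38) at low levels in both lines, 0.905, 0.842 and 1.94 CPM in HT-29 and 3.21, 4.56 and 6.29 CPM in HCT116, against a mean of 1188 CPM in CCD841CoN. The members that were higher in HT-29 were the transglutaminase TGM2 (179.6 ± 79.1 CPM in HT-29 and 14 ± 10.4 CPM in HCT116) and the tropomyosin TPM1 (211 ± 6.12 CPM in HT-29 and 24.9 ± 2.61 CPM in HCT116).

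Among integrins and laminins, 10 of 22 were higher and 1 lower in HT-29, or 3 lower without HT-29 replicate 2 and 2 lower without HT-29 replicate 3 or HCT116 replicate 3. The integrin subunit ITGB6 stood at 78.2, 65.6 and 42.4 CPM in HT-29 against 0.545, 0.582 and 0.324 CPM in HCT116 (log2 fold change 7.03 ± 0.54, adjusted p = 1.33e-07). The fibronectin receptor subunit ITGA5 stood at 0.0348, 5.37 and 0.278 CPM in HT-29 against 50.9, 84.4 and 93.3 CPM in HCT116 (-5.23 ± 0.93, or -9.33 without HT-29 replicate 2). Of 27 matrix proteases and inhibitors, 10 were higher and 4 lower. MMP7, the matrilysin of epithelia, stood at 466, 278 and 357 CPM in HT-29 against 2.15, 0.874 and 1.16 CPM in HCT116 (log2 fold change 8.06 ± 0.69, adjusted p = 1.21e-06), and TMPRSS2, a membrane serine protease, averaged 43.1 ± 7.91 CPM in HT-29 and 0.162 ± 0.28 CPM in HCT116 (8.28 ± 0.79, or 12.87 without HCT116 replicate 2, the only one with counts). PLAU, the urokinase gene, was lower, at 1.64, 9.34 and 3.24 CPM in HT-29 against 46.3, 52 and 66.2 CPM in HCT116 (-3.48 ± 0.66, or -4.47 without HT-29 replicate 2).

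The pathways in which the lines carry different mutations were compared next. Among Wnt targets and feedback genes, 10 of 28 were higher and 7 lower in HT-29 (median 0.37). Without HT-29 replicate 2, 10 were higher and 6 lower (median -0.028). ASCL2, a stem cell factor of the crypt, stood at 8.94, 6.54 and 23.3 CPM in HT-29 against 0, 0.0485 and 0 CPM in HCT116 (log2 fold change 9.46 ± 0.85, adjusted p = 1.92e-06). AXIN2, a feedback inhibitor of the pathway, stood at 42.5, 44.7 and 35.6 CPM in HT-29 against 11.2, 9.9 and 8.7 CPM in HCT116 (log2 fold change 2.10 ± 0.29, adjusted p = 4.03e-05). The receptor LGR4 and the ubiquitin ligases ZNRF3 and RNF43, which remove Wnt receptors, were higher as well, with log2 fold changes of 4.21, 1.98 and 1.71. Other members of the list, NOTUM and NKD1, ran the other way in the 50% mixtures, at low levels and with 1 library each. NOTUM stood at 0.822 CPM in the HT-29 mixture against 4.71 CPM in the HCT116 mixture, and NKD1 at 0.219 against 1.11 CPM. Lower members were CTNNB1, the gene of beta-catenin itself, at 197, 274 and 126 CPM in HT-29 against 777, 735 and 693 CPM in HCT116 (log2 fold change -1.84 ± 0.28, adjusted p = 0.000102), and CCND1, cyclin D1, at 159, 194 and 201 CPM in HT-29 against 438, 1134 and 551 CPM in HCT116 (log2 fold change -1.85 ± 0.30, adjusted p = 0.000183). The receptor EPHB2 was lower (-2.25 ± 0.38) while its relative EPHB3 was higher (3.51 ± 0.46). MYC overlapped between the lines (0.28 ± 0.36, adjusted p = 0.578), as did APC (0.082 ± 0.39, adjusted p = 0.896).

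For the MAPK pathway, 8 of 27 feedback and output genes were higher and 2 lower in HT-29 (median -0.14). This count rested on single libraries: 5 were higher without HT-29 replicate 1, HT-29 replicate 2 or HCT116 replicate 3, 11 were higher without HT-29 replicate 3, and 4 were lower without HT-29 replicate 2, with the replicate block or with DESeq2. SPRY1 and SPRY2, inhibitors of receptor tyrosine kinase signalling, were higher, with 48.9, 24.8 and 33.1 CPM of SPRY1 in HT-29 against 3.94, 1.7 and 3.24 CPM in HCT116 (log2 fold change 3.63 ± 0.41, adjusted p = 6.59e-06), and 54.5 ± 16 CPM of SPRY2 in HT-29 and 8.63 ± 0.928 CPM in HCT116. FOS, an immediate early transcription factor, stood at 180.0, 630.3 and 43.9 CPM in HT-29 against 10.4, 6.12 and 7.86 CPM in HCT116 (5.13 ± 0.73, or 3.81 without HT-29 replicate 2). PHLDA1 was lower, at 98.9, 183 and 134 CPM in HT-29 against 1186, 473 and 788 CPM in HCT116 (log2 fold change -2.52 ± 0.45, adjusted p = 0.000474). HT-29 replicate 2 was the highest HT-29 library for EGR1, at 53.4, 257 and 9.54 CPM in HT-29 against 23.6, 24.4 and 37.8 CPM in HCT116 (1.91 ± 0.77, adjusted p = 0.0648), and EGR1 was called higher by DESeq2 and, by edgeR, without HT-29 replicate 3 (2.44). Without HT-29 replicate 2, EGR1 was called neither by edgeR nor by DESeq2. The ERK phosphatase gene DUSP5 stood at 14.2, 139 and 3.7 CPM in HT-29 against 64.4, 130.2 and 43.3 CPM in HCT116, and was called only without HT-29 replicate 2 (-3.09, adjusted p = 0.000448) or in the blocked fit of these 6 libraries. BRAF was not called (-0.24 ± 0.41).

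Of the EGF family, ERBB3, a kinase-impaired receptor for neuregulins, stood at 361, 312 and 172 CPM in HT-29 against 44.8, 33.1 and 33.1 CPM in HCT116 (log2 fold change 2.97 ± 0.39, adjusted p = 2.67e-05), and ERBB2 averaged 181 ± 58.9 CPM in HT-29 and 63.9 ± 18.8 CPM in HCT116 (log2 fold change 1.57 ± 0.30, adjusted p = 0.000758). EGFR was not called (0.49 ± 0.33, adjusted p = 0.282). The ligand EREG was lower, at 153, 485 and 140.5 CPM in HT-29 against 1032, 730.1 and 727 CPM in HCT116 (log2 fold change -1.65 ± 0.54, adjusted p = 0.0266), but not without HT-29 replicate 1, HT-29 replicate 3 or HCT116 replicate 1 (adjusted p = 0.0983, 0.0999 and 0.0883). HT-29 replicate 2 was the highest HT-29 library for EREG, and without that library the gene was still called lower.

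**Figure D5:**
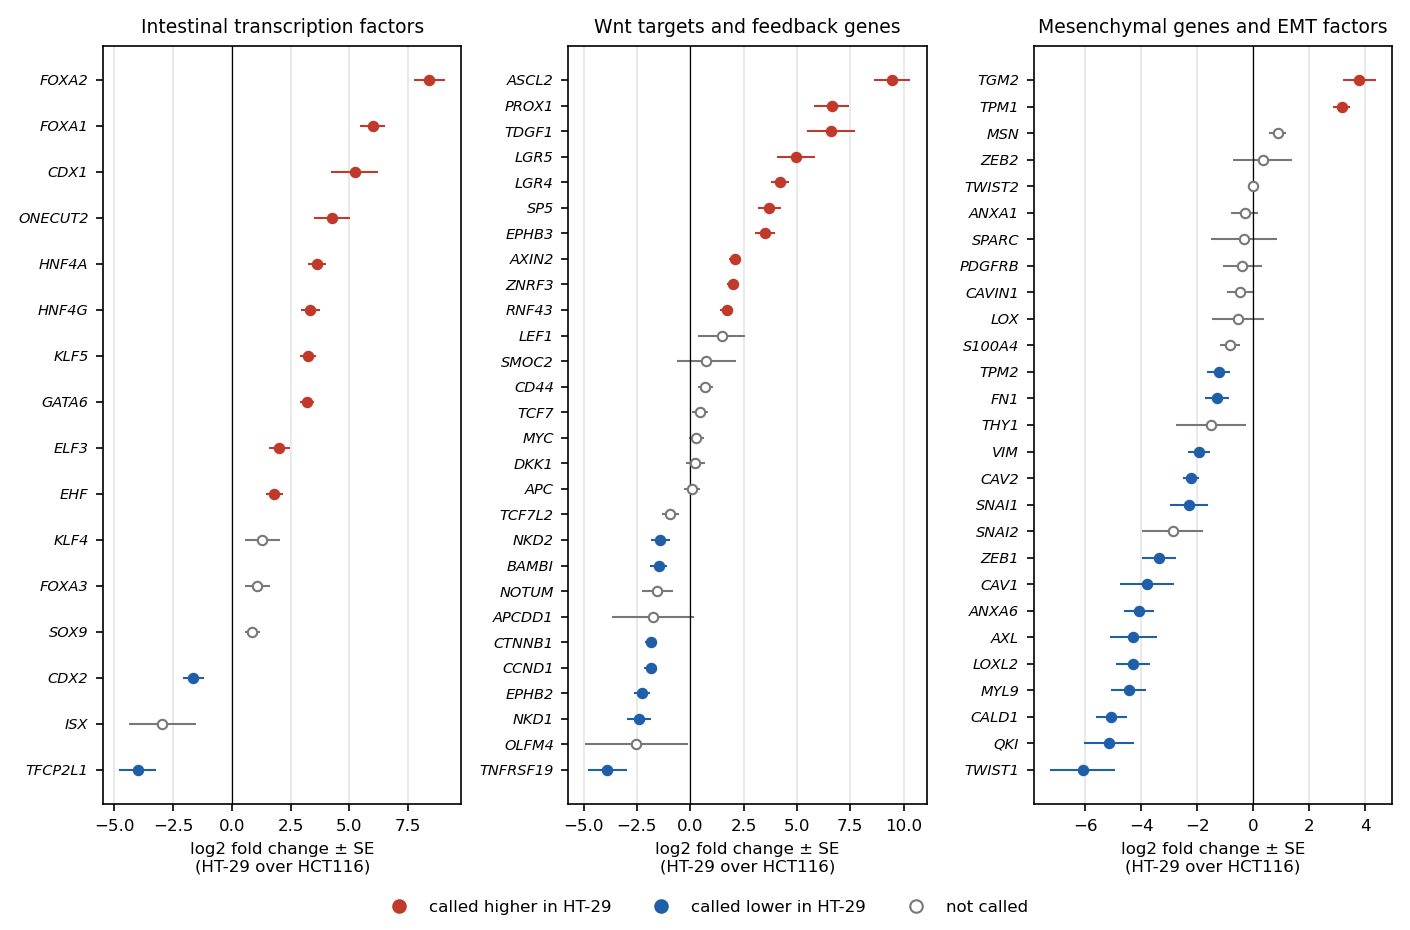
Log2 fold changes of HT-29 over HCT116 (horizontal axis) with their SE for members of 3 lists: 16 of the 18 intestinal transcription factors, 28 Wnt targets and feedback genes, and 27 mesenchymal genes. Red points were called higher and blue points lower in HT-29, and open points were not called. The first list lies mostly to the right of 0 with CDX2 and TFCP2L1 to the left, the Wnt list holds 10 red and 7 blue points, and the mesenchymal list 2 red and 14 blue points.

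CDKN1A, which encodes p21 and halts the cell cycle, stood at 62.8, 123 and 40.6 CPM in HT-29 against 237, 179.7 and 357 CPM in HCT116 (log2 fold change -1.74 ± 0.44, adjusted p = 0.00559). MDM2, a ubiquitin ligase, stood at 60.8, 89.9 and 54.8 CPM in HT-29 against 262, 196 and 127 CPM in HCT116 (log2 fold change -1.46 ± 0.32, adjusted p = 0.00231). RRM2B, a ribonucleotide reductase subunit, the death receptor FAS and the phosphatase PPM1D were lower as well, with log2 fold changes of -2.01 (-1.29 without HCT116 replicate 1), -1.82 and -1.45. For CDKN1A, MDM2, RRM2B, FAS and PPM1D no HT-29 library reached the lowest HCT116 library, and no left-out library ended the call. PLK2, a polo-like kinase, was higher, at 668, 979.7 and 391 CPM in HT-29 against 82.6, 177 and 78.1 CPM in HCT116 (log2 fold change 2.66 ± 0.36, adjusted p = 3.29e-05), as was SUSD6 (log2 fold change 2.37 ± 0.48, adjusted p = 0.00126). GDF15 overlapped between the lines, as did BAX (log2 fold change 1.01 ± 0.40, adjusted p = 0.064), although BAX was called higher with the replicate block (1.07, adjusted p = 0.000913), with DESeq2 and without HCT116 replicate 3. The cell cycle inhibitor gene CDKN2A averaged 179.9 ± 68.3 CPM in HT-29 and 65.4 ± 24.2 CPM in HCT116 (log2 fold change 1.54 ± 0.35, adjusted p = 0.003).

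Of 8 mismatch repair genes, 2 were higher and 2 lower in HT-29. MSH3, the recognition subunit for longer insertion and deletion loops, stood at 49.6, 42.3 and 40.9 CPM in HT-29 against 7.93, 4.66 and 4.86 CPM in HCT116 (log2 fold change 2.97 ± 0.34, adjusted p = 8.12e-06). Of the 5 lines, HCT116 had the lowest mean level of MSH3, 5.82 ± 1.84 CPM. The exonuclease EXO1 was lower in HT-29, at 25.7, 37.8 and 50.6 CPM against 109.8, 108 and 95 CPM in HCT116 (log2 fold change -1.39 ± 0.35, adjusted p = 0.00585), and PMS1 was lower with all libraries (log2 fold change -1.09 ± 0.39, adjusted p = 0.0398) but not without HT-29 replicate 1, HT-29 replicate 2 or HCT116 replicate 1. MSH6, PMS2 and MLH3 were not called.

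The TGF-beta list gave 10 members higher and 5 lower of 32, or 3 lower without HT-29 replicate 3. Without HT-29 replicate 2, 9 were higher and 7 lower. SMAD4, the common mediator of TGF-beta and BMP signals, stood at 6.96, 14.4 and 3.98 CPM in HT-29 against 165, 109 and 83.7 CPM in HCT116 (-3.78 ± 0.45, or -4.39 without HT-29 replicate 2). The BMP target ID3 stood at 0.452, 17.2 and 0.278 CPM in HT-29 against 115, 85.1 and 143 CPM in HCT116 (-4.23 ± 0.93, or -8.14 without HT-29 replicate 2). On the other side, PMEPA1, a TGF-beta-induced feedback gene, stood at 52.1, 77.4 and 40.9 CPM in HT-29 against 0.394, 0.582 and 0.231 CPM in HCT116 (log2 fold change 7.18 ± 0.49, adjusted p = 4.13e-08). TGFBI, a TGF-beta-induced matrix protein, stood at 41.9, 39.4 and 43.2 CPM in HT-29 against 0.0303, 0.485 and 1.16 CPM in HCT116 (log2 fold change 6.36 ± 0.67, adjusted p = 3.27e-06). The receptor TGFBR2, chosen after its values were seen, averaged 239 ± 26.2 CPM in HT-29 and 59.1 ± 14.8 CPM in HCT116 (log2 fold change 2.08 ± 0.34, adjusted p = 0.000191).

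Of 36 interferon-stimulated genes, 17 were higher and 2 lower (median 1.58). BST2, the antiviral tetherin, stood at 105, 71 and 194 CPM in HT-29 against 0.515, 0.291 and 0.601 CPM in HCT116 (log2 fold change 8.08 ± 0.75, adjusted p = 9.77e-07), and IFI27 stood at 173, 84.8 and 259 CPM in HT-29 against 0.848, 0.728 and 1.2 CPM in HCT116. IFITM3, an inhibitor of virus entry, was lower, at 78.8, 59.4 and 86.9 CPM in HT-29 against 208, 309 and 381 CPM in HCT116 (log2 fold change -1.92 ± 0.34, adjusted p = 0.000386). In HLA class I and peptide loading, 6 of 21 were higher and 2 lower. PSMB8, a subunit of the immunoproteasome, stood at 18.9, 5.01 and 12.9 CPM in HT-29 against 0.333, 0 and 0.416 CPM in HCT116 (log2 fold change 5.59 ± 0.69, adjusted p = 1.45e-05), and ERAP2, which trims peptides, averaged 112 ± 31.5 CPM in HT-29 and 2.48 ± 1.72 CPM in HCT116. HLA-C was lower (log2 fold change -2.50 ± 0.46, adjusted p = 6e-04), but reads of the HLA genes depend on how the lines' alleles match the reference, and their values are uncertain. The other lower member, the chaperone gene CALR, was not called without any HT-29 library in turn or without HCT116 replicate 2 or 3, and the list had 1 lower member without HT-29 replicate 2 or HCT116 replicate 3.

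Metabolic genes differed in both directions. Of 31 genes of xenobiotic and lipid metabolism, 15 were higher and 10 lower in HT-29 (14 and 8 without HT-29 replicate 2), and of 32 redox genes 10 were higher and 7 lower. ALDH1A1, a retinaldehyde dehydrogenase, stood at 451, 433 and 504 CPM in HT-29 against 0.0908, 0.291 and 0.231 CPM in HCT116 (log2 fold change 11.26 ± 0.61, adjusted p = 8.47e-09), while its relative ALDH1A3 stood at 12, 39.7 and 15.3 CPM in HT-29 against 219, 238 and 381 CPM in HCT116 (log2 fold change -3.60 ± 0.42, adjusted p = 9.15e-06). The aldo-keto reductase gene AKR1B10 averaged 381 ± 135 CPM in HT-29 and 0.583 ± 0.225 CPM in HCT116 (log2 fold change 9.39 ± 0.60, adjusted p = 2.09e-08), and AKR1B1 averaged 1.46 ± 2.04 CPM in HT-29 and 77.4 ± 12.8 CPM in HCT116 (-5.64 ± 0.90, or -8.36 without HT-29 replicate 2). Within both families, one member was high where the other was low. CA9, a carbonic anhydrase induced by hypoxia, stood at 452, 179.5 and 297 CPM in HT-29 against 0.151, 0.243 and 0 CPM in HCT116 (log2 fold change 11.20 ± 0.77, adjusted p = 4.13e-08). The hypoxia-induced genes ADM and BNIP3 ran the other way (-2.63 ± 0.34 and -4.03 ± 0.64). Of 29 genes of glycolysis and hypoxia, 4 were higher and 3 lower, or 7 higher without HT-29 replicate 3.

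Among HOX genes, 12 of 32 were higher and 5 lower in HT-29, or 3 lower without HT-29 replicate 3 or HCT116 replicate 3. HOXA13, of the hindgut end of its cluster, stood at 97.1, 60.7 and 73.2 CPM in HT-29 against 15.7, 10.7 and 10.7 CPM in HCT116 (log2 fold change 2.69 ± 0.37, adjusted p = 7.88e-05). HOXC9 stood at 0.209, 0.682 and 0 CPM in HT-29 against 4.57, 5.44 and 10.4 CPM in HCT116 (log2 fold change -4.33 ± 0.86, adjusted p = 0.00109). The stem cell factor KITLG, a growth factor for KIT-bearing cells, stood at 155, 276 and 169.6 CPM in HT-29 against 2736, 1652 and 1022 CPM in HCT116 (log2 fold change -3.13 ± 0.41, adjusted p = 2.87e-05), and IGFBP4, which binds insulin-like growth factors, stood at 250.1, 209 and 363 CPM in HT-29 against 0, 0.0485 and 0.925 CPM in HCT116 (log2 fold change 9.88 ± 0.94, adjusted p = 1.22e-06). Of the cancer testis genes, PRAME stood at 0, 3.89 and 0 CPM in HT-29 against 60.5, 69.4 and 95.7 CPM in HCT116 (-5.77 ± 1.30, or -13.63 without HT-29 replicate 2). The near-identical MAGEA3 and MAGEA6 went in opposite directions (-3.16 ± 0.57 and 5.69 ± 0.89), and their reads can be split by the counting, so these values are uncertain.

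For genes of DNA replication and mitosis the count of calls rested on single libraries. Of 32 genes, 8 were lower and none higher in HT-29 with all libraries (median -0.61), but leaving out 1 library gave 0 (HT-29 replicate 1), 2 (HT-29 replicate 2 or HCT116 replicate 3), 3 (HCT116 replicate 2) or 13 lower (HT-29 replicate 3). Of 13 mitochondrially encoded genes none was called with all libraries, and 6 were higher without HT-29 replicate 3, the library with the lowest mitochondrial share.

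The mixtures gave the same comparison in libraries that the fit did not use, with 1 library each and no test. The HT-29 mixture with 50% cancer RNA was set against the HCT116 mixture with 50%, as log2 ratios of CPM plus 0.5, over called genes below 1 CPM in CCD841CoN. The sign matched the unmixed lines for 1193 of 1265 genes (94.3%), a share over genes of 1 pair of libraries, which are not independent. It did so for 692 of 733 genes higher in HT-29 and for 501 of 532 lower ones, with median log2 ratios of 2.08 and -2.01. Among 1655 genes that were not called, 39.5% had a ratio above 0 and the median was 0. LYZ stood at 1361 CPM in the HT-29 mixture against 0 CPM in the HCT116 mixture. GTSF1 had no count in the HT-29 mixture, which for 54714765 counts allows up to 0.0548 CPM at a floor of 3 counts, against 155 CPM in the HCT116 mixture. MAGEB2 likewise had no count in the HT-29 mixture against 147 CPM in the HCT116 mixture. CDX2 stood at 3.51 CPM in the HT-29 mixture against 9.49 CPM in the HCT116 mixture.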

How the data were processed

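RNA sequencing counts were analysed for the 3 unmixed libraries each of HT-29 and HCT116. Per the labels, total RNA went into stranded libraries after removal of ribosomal RNA (Roche KAPA kit with RiboErase). Per the submitters' processing notes, STAR, featureCounts and the hg19 build were used; versions and settings are not given in the sources used here. The authors deposited whole counts for 17113 protein-coding genes. Counts sum to 10800329 to 33029384 a library, which limits low levels to steps of 1 count.

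The 15 unmixed libraries of 5 lines were fitted together with edgeR 4.0.16 in R 4.3.3 (TMM, filterByExpr, quasi-likelihood test), and HT-29 was contrasted with HCT116. A call needed a Benjamini-Hochberg adjusted p below 0.05 over all tested genes and a log2 fold change of 1 or more in size. The SE is the fold change over the root of F. CPM were not scaled by TMM. With no count in a line, ratios use a floor of 3 counts over its libraries, and floors cover counting error only. DESeq2 1.42.0 was the other tool. Mixtures, promoters and figures used Python 3.11.15 (matplotlib 3.10.9, pandas 2.3.3, scipy 1.17.1, numpy 2.4.6).

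Members and 37 gene lists were chosen with earlier results of these data known, so counts over lists are descriptions. Named genes are the 15 largest and 15 smallest ratios of mean CPM over genes that were called, reached 10 CPM in a line and had no overlap between lines, up to 3 called members per list and direction at 5 CPM or more, and all members of 9 lists. The ranking without HT-29 replicate 2 was added after seeing the data. The text names part of the genes this rule gives, chosen after their values were seen, and other exceptions are named where they occur. Some genes and 1 list that the rule gives are not reported here.

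Replicate numbers paired the libraries: deviations from the line's mean correlated at 0.390, 0.334 and 0.494 between libraries of equal number over 9455 genes, and at most at 0.0348 between others. Deviations from a mean cancel out within a line, so the values between others are partly fixed by those of equal number. A block for the number was an alternative, as were other scalings, no filter, DESeq2, only these 6 libraries, and each library left out.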

Additional observations from a re-analysis of the deposited data

How the results depend on the processing

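Of the 126 genes named here, 118 (of 121 with an adjusted p, DESeq2) to 126 kept their side of the threshold and their direction under each alternative, and none reversed. The count of 4422 called genes stayed within 1.5 times under every alternative, from 3616 to 4263 when each library was left out in turn to 4909 with the replicate block. No gene called both in the main fit and in an alternative had opposite directions. DESeq2 size factors gave 4409, library size only 4378, no filter 4390, DESeq2 4556 (33 adjusted p-values missing), these 6 libraries alone 4112, and the block within these 6 libraries 4450. Genes called higher were 1817 to 2188 and lower 1799 to 2159 with a library left out. Among the 126 genes, the block for the replicate number ended no call and added that of BAX with all 15 libraries, ended that of CALR and added those of BAX, DUSP5 and KLF4 within these 6 libraries, and changed CALR, PMS1, BAX and DUSP5 without HT-29 replicate 2. Without HT-29 replicate 2, 4064 genes were called, and 4055, 4365 and 4780 when library size only, DESeq2 or the block was used as well, settings added after the data had been seen. With a log2 ratio of at least 5 for markers, HCT116 markers in HT-29 replicates 1, 2 and 3 stood at 0.156, 6.64 and 0.595%, against 0, 6.53 and 0.438% at 7. Markers absent from the other lines gave no value for HT-29 replicates 1 and 3, where none qualified. The share of called genes with the same sign in the mixtures was 94.3%, 93.2% over all called genes and 95.7% for calls made without HT-29 replicate 2. Differences at levels of a few counts, such as those of CDX1, are limited by depth, above all by HT-29 replicate 3.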

Other observations

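Called genes were also placed by their order along the chromosomes in RefSeq, using 9904 tested genes at 10 CPM or more in either line, in runs of 25 neighbours. Over all 9350 runs, which overlap, the middle 90% of medians lay between -0.74 and 0.70 on the log2 scale. The lowest run went from CHMP7 to EXTL3 on chromosome 8, where the median was -1.88 and 20 of 25 genes were called lower and none higher in HT-29. 2 further runs on the same chromosome followed, from ERICH1 to NAT1 (median -1.73, 17 lower) and from RBPMS to GINS4 (-1.66, 19 lower and 1 higher). On chromosome 18, the run from NPC1 to SLC39A6 had a median of -1.21, with 13 lower and 2 higher. After it came chromosome 8 again, with the run from CA2 to TP53INP1 (-1.17, 15 lower and none higher). The highest run went from RASSF7 to SYT8 on chromosome 11 (median 1.53, 17 higher and none lower), followed by WDR73 to CIB1 on chromosome 15 (1.40, 13 higher and none lower) and FBXO32 to AGO2 on the other end of chromosome 8 (1.23, 12 higher and 1 lower). Without HT-29 replicate 2 these medians were -1.89, -2.05, -1.71, -1.40, -1.25, 1.59, 1.18 and 1.04. These runs were ranked on the values that define them, so they are descriptions without a test, and DNA copy number was not measured here.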
